A study of Mus musculus with 4 samples.

Results

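E2F1 peaks that held nearly the same signal in serum ESCs and in 2i ESCs are described here. They were selected on the measured values themselves: a peak was taken as stable when the mean of its 4 deposited values was at least 50 normalized counts and its largest value was at most 1.4 times its smallest. The rule found 667 stable peaks among 4523 E2F1 peaks (14.7%), or among the 2731 peaks with a mean of at least 50 (24.4%, exact 95% binomial interval 22.8 to 26.1%, counting error only). E2F1 occupancy was measured by chromatin immunoprecipitation and sequencing (ChIP-seq) in mouse embryonic stem cells (ESCs), with 2 biological replicates in each condition. Serum ESCs grew in fetal calf serum with the cytokine LIF. 2i ESCs grew without serum, with LIF, the MEK inhibitor PD0325901 and the GSK3 inhibitor CHIR99021. Cells of both groups were adapted to their medium for over 20 days. No genotype or treatment other than the medium separates the groups in the labels, the line used for these ChIPs is not given there, and no input or control immunoprecipitation was analysed here. ChIP-seq gives no RNA levels, so the cell type could not be checked against expressed markers.

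E2F1 is a DNA-binding factor that works as a dimer with a DP protein and activates genes for DNA replication and entry into S phase. In early G1 it is held inactive by the retinoblastoma (RB) protein, and phosphorylation of RB by cyclin-dependent kinases frees it. Related factors of the family either activate (E2F1, E2F3) or repress (E2F4, E2F8) and share a binding word rich in C and G, so that E2F sites lie mostly in CpG-rich promoters near transcription starts.

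Sequence around the peak centre was read from the NCBIM37 genome (mm9) in windows of 401 bp and searched on both strands for 4 forms of the E2F word, TTTCGCGC, TTTGGCGC, TTTCCCGC and TTTGCCGC. At least 1 of these stood in 40 of the 667 stable peaks (6.0%, 4.32 to 8.08%), in 4.77% of the 2054 other placed peaks with a mean of at least 50 and in 3.46% of 45968 windows of the same length at starts of protein-coding transcripts. The intervals of the stable and other peaks overlap. The word nearest to the centre was TTTCCCGC in 18 stable peaks, TTTGCCGC in 11, TTTGGCGC in 6 and TTTCGCGC in 5. Its median distance from the peak centre was 118 bp in stable peaks and 117 bp in the others. The sequences below are the words found in 7 peaks described in this report, and show how the same letters sit in unrelated promoters. Capitals mark the E2F word, and each run is given 5′ to 3′ on the strand that carries it, cut to 30 bases where it touches an annotated exon. Ctnnb1 is at chr9:120842757-120842836 (minus strand), 2410022L05Rik at chr8:13890078-13890157 (plus), Rps20 at chr4:3762442-3762471 (minus), Rpsa at chr9:120036896-120036925 (plus), Usp1 at chr4:98590511-98590540 (plus), Ptprk at chr10:27794375-27794454 (plus) and E2f8 at chr7:56136692-56136721 (minus).
Ctnnb1: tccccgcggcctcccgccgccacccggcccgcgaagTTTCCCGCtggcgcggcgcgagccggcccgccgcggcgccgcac
2410022L05Rik: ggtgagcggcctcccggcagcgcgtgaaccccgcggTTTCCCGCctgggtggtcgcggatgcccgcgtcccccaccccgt
Rps20: cgctgtttgttTTTCCCGCctgggtgataa
Rpsa: gccgcccgtccTTTCGCGCtacccggggac
Usp1: cggctcgcgccTTTCGCGCctctgcaacgt
Ptprk: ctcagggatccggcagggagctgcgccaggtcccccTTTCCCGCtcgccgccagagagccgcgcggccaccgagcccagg
E2f8: gaaggcggccgTTTCCCGCctcccgccccg

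A shorter form of the same 4 words, each without its first T and chosen after the data were seen, stood in 27.9% of stable peaks, 29.5% of the other peaks of that signal and 16.2% of coding starts. The letters of the E2F word were therefore more frequent at E2F1 peaks of either kind than at coding starts, with overlapping intervals between the kinds (24.5 to 31.5% and 27.5 to 31.5%). GC content also differed between peaks and coding starts, and its part in this was not tested. A match describes letters only, and a window without one says nothing about binding.

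Base composition was nearly the same in stable and other peaks. The median GC content of the windows was 76.8% in stable peaks and 76.6% in the others, against 58.1% at all coding starts. The median ratio of observed to expected CpG was 1.01, 0.987 and 0.586 in the same order. GGGCGG, the GC box bound by SP and KLF factors, stood in 93.9% of stable peaks, 93.1% of the others and 49.5% of coding starts. CCAAT, the NF-Y word, was the less frequent at peaks, at 18.3%, 17.5% and 40%. The YY1 word AAGATGGCG was found in 6.15% of stable peaks (4.45 to 8.25%), 4.72% of the others and 2.44% of coding starts. The ETS word CCGGAAG (13.8%, 13.7% and 12.4%), the E-box CACGTG (10.9%, 10.1% and 8.71%) and the NRF1 word GCATGCGC (4.35%, 3.80% and 3.37%) varied less between these sets. Of CTCGCGAG and the cAMP response element TGACGTCA, the former stood in 3.0% of stable peaks and 3.07% of the others, and the latter in 1.2% and 1.70%. For each of these 8 words the intervals of stable and other peaks overlap.

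Stable peaks lay at transcription starts. By the GENCODE M1 annotation, the centre of 462 of the 667 (69.3%, 65.6 to 72.8%) was in a promoter-TSS, taken as 1000 bp before to 100 bp after a transcript start, against 67.5% of the other peaks of that signal and 65.6% of all placed peaks. A further 18.6% were in an exon, 10.2% in an intron and 1.95% (13 peaks) between genes. Distances showed a closer grouping at the start. In stable peaks 84.9% (81.9 to 87.5%) of centres were within 250 bp of a start, against 77.4% (75.5 to 79.2%) in the other peaks, and 94.0% (91.9 to 95.7%) against 89.4% (88.0 to 90.7%) were within 500 bp. Neither pair of intervals overlaps, though neighbouring peaks are not independent and stable peaks had the higher median signal (111 against 92.4 normalized counts), whose part was not tested. Within 100 bp were 50.5% and 48.2%, with overlapping intervals. The median stable peak was centred 57.0 bp downstream of its start and the median other peak 58.0 bp, and 68.4% and 67.8% were downstream. Over 5000 bp from any start were 16 stable peaks (2.40%), 3.99% of the others and 6.17% of all placed peaks. A second start on the opposite strand made a divergent promoter at 12.3% of stable and 12.4% of other peaks. The stable peaks were nearest to 657 genes, and 7 gene names had more than 1 peak. These were the U2, U3 and U5 small RNAs, whose names stand for repeated loci and whose near-identical copies leave the placing of reads uncertain, and Cacna1a, Zzz3, Dyrk1a and Klf16.

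Signal at stable peaks ranged from a mean of 50.04 to 782 normalized counts, with a median of 111 and quartiles of 77.2 and 168. The median value was 112 in each of the serum replicates, and 113 and 110 in replicates 1 and 2 of 2i. Each sample gave the highest of the 4 values at 152 to 178 of the stable peaks and the lowest at 151 to 188. The rule keeps out peaks where a sample deviates, so these tallies describe the chosen peaks only. The ratio of largest to smallest value had a median of 1.28 and a minimum of 1.035, and was at most 1.1 in 26 peaks, at most 1.2 in 157 and at most 1.3 in 376. Stable peaks had a median length of 588 bp, and the other peaks with a mean of at least 50 one of 551 bp.

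**Figure D1:**
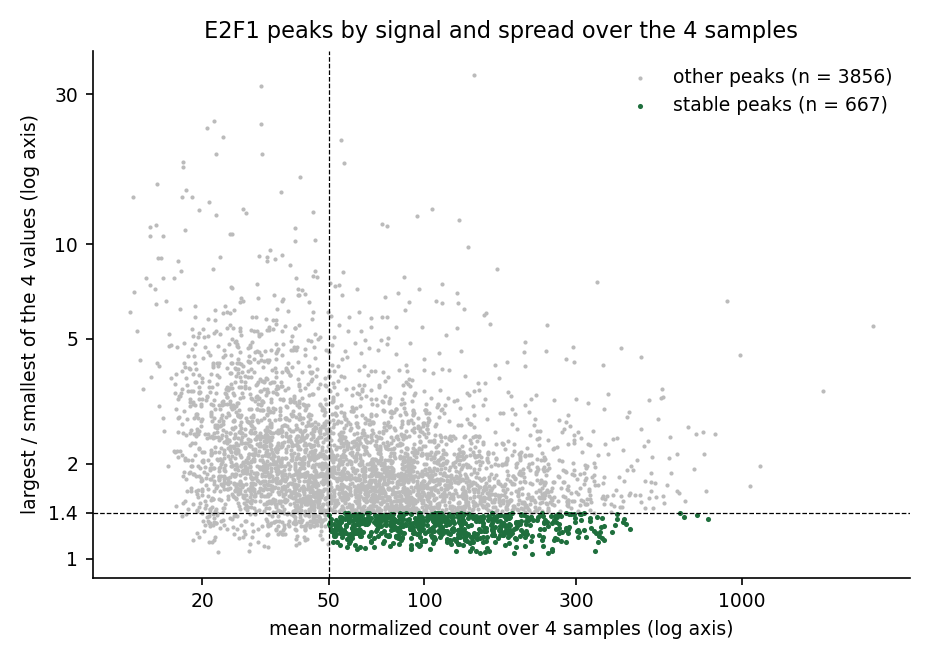
Each point is 1 E2F1 peak, with the mean of its 4 normalized counts on the horizontal log axis and its largest value over its smallest on the vertical log axis. The 667 stable peaks (green) fill the corner set by the dashed limits of 50 and 1.4, and the other peaks (grey) reach ratios of up to 34.6.

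The deposited values were whole multiples of a step, within 0.05 reads, in 99.95% of 18092 cases, and none of the exceptions was at a stable peak. The step was found from the spacing of low values and taken as 1 read, and was 1.74 and 0.953 normalized counts in the 2 serum libraries and 0.560 and 1.04 in the 2 2i libraries, for 248878, 450420, 710519 and 395738 reads in peaks. The shallowest library, serum replicate 1, thus rested on a median of 64.0 reads at stable peaks and 2i replicate 1 on 201. Counting noise alone gives a standard deviation (SD) on the log2 scale of 0.180 in the former and 0.102 in the latter at those depths. The variance of the reads of the 4 samples around a common level, divided by the variance that counting noise gives, had a median of 1.26 in stable peaks. This index, a ratio of variances and not of SDs, was under 1 in 247 of them (37.0%). In the other peaks of that signal this index had a median of 7.46. Both follow from the rule, and are given to show how close the stable peaks come to the counting limit.

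The share of peaks that were stable differed with signal. It was 19.4% at means of 50 to 60 (15.5 to 23.8%), 18.1% at 60 to 75 and 21.3% at 75 to 100. At 100 to 150 it was 29.1%, and at 150 to 200 it reached 35.3% (29.6 to 41.3%). From 300 up it was 22.8% (37 of 162 peaks, 16.6 to 30.1%). Weak peaks, with a median of 31.0 reads in serum replicate 1 in the lowest class, and the strongest peaks thus both passed the rule less often than peaks of 150 to 200, with intervals that just overlap in the strongest class. The part of depth in this was not tested.

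The 2064 other peaks of that signal missed the limit in different ways. In 744 of them both replicate pairs were within 1.4-fold, and the limit was passed only between a serum and a 2i value. The values of the conditions may still overlap in these. The 2 serum replicates alone were past 1.4-fold in 525, the 2 2i replicates alone in 549, and both pairs in 246. A peak outside the stable set is therefore not by that a peak that differs between serum and 2i.

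Just inside the ratio limit were the peaks at U2, Eif4a2 and Nxf1, with ratios of 1.399, 1.399 and 1.4. Just past it were Pura, Zfp407 and Mxd1, whose ratios also round to 1.4. At the lower limit of signal, Marveld2 (mean 50.04), Fam189a1 (50.3) and Fam102b (50.4) were inside and Gm962 (49.6), Eps15 (48.6) and Med20 (48.6) outside. Nothing in these values separates the peaks on the 2 sides beyond the limits themselves.

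The rule reads the same 4 values as the comparison of serum with 2i, so this comparison is no test of the stable peaks. On log2(normalized count + 1), their fitted differences of serum minus 2i lay between -0.46 and 0.41 (median 0.01), and serum was the higher in 355 of 667. limma called 0 stable peaks at a log2 fold change past 1 with an unadjusted p under 0.05, where 10.3% of all peaks were called, and 0 had an unadjusted p under 0.05, against 17.8% of all peaks. After Benjamini-Hochberg adjustment the count was 0 of 667 as well, and 66 among all 4523, a number that varies widely with the fit (0 to 311). The 95% limma interval of the difference lay within 2-fold either way in 661 stable peaks (99.1%), with a median half-width of 0.58, beside 34.8% of all peaks and a half-width of 0.76, which the rule also bears on. In 226 stable peaks (33.9%) the replicates of serum and 2i did not overlap, 123 with serum higher and 103 with 2i higher, against 49.3% of all peaks.

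The stable peaks with the largest fitted differences, picked for that, are given as a description. At Vkorc1l1, a vitamin K epoxide reductase paralog, the values were 71.4 and 71.5 in serum and 99.1 and 98.1 in 2i (log2 difference -0.46). The replicates were almost equal within each condition, and the 2i values were the higher. At Cul1, the scaffold of SCF ubiquitin ligases, they were 258 and 252 in serum and 348 and 327 in 2i (-0.40). At Strn3, a striatin subunit of PP2A complexes, they were 226 and 234 in serum and 177 and 170 in 2i (0.41). Spg7, a mitochondrial protease subunit, also had serum higher, with 293 and 305 against 236 and 220 (0.39). At Herc2, a large ubiquitin ligase, the serum values of 73.2 and 73.4 stood above 2i values of 56.0 and 56.3 (0.38). Ptprk, a receptor tyrosine phosphatase, had 81.9 and 86.7 in serum and 111 and 110 in 2i (-0.39). With values rescaled to the same total, Vkorc1l1, Cul1 and Ptprk, those with 2i higher, left the rule at ratios of 1.512, 1.491 and 1.483. These 6 peaks had no overlap between conditions, and with 2 samples against 2 an exact two-sided permutation test cannot go below p = 0.333.

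Replicates not used for choosing give a view of stability that the rule did not fix. When peaks were chosen only on serum replicate 1 and 2i replicate 1, with the same limits of 50 and 1.4 on those 2 values, 1513 peaks were taken. In serum replicate 2 and 2i replicate 2, 1082 of them (71.5%, 69.2 to 73.8%) were again within 1.4-fold, with a median ratio of 1.23. Of the 1216 peaks that had been past 1.4-fold in the first pair, 55.8% (53.0 to 58.7%) were within it in the second, with a median ratio of 1.33. Being past 2-fold in the second pair occurred in 5.62% of the chosen peaks and 14.3% of those not chosen. By signal, 64.2%, 70.6% and 81.4% of chosen peaks were within 1.4-fold at choosing means of 50 to 75, 75 to 150 and 150 up, against 53.7%, 58.2% and 54.7% of those not chosen. Chosen on serum replicate 2 and 2i replicate 1, they were 60.2%, 63.1% and 70.0% against 46.9%, 53.3% and 51.0%, so the gap did not rise at each step in every pairing. The share of chosen peaks was above that of peaks not chosen in each of the 4 ways to pair a serum with a 2i replicate, at 62.0% against 45.0%, 67.2% against 54.4% and 64.1% against 50.6% in the other pairings. Stability in 1 pair of samples was thus partly carried into the other, and part of the peaks chosen on 1 pair left the limit in the second.

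**Figure D2:**
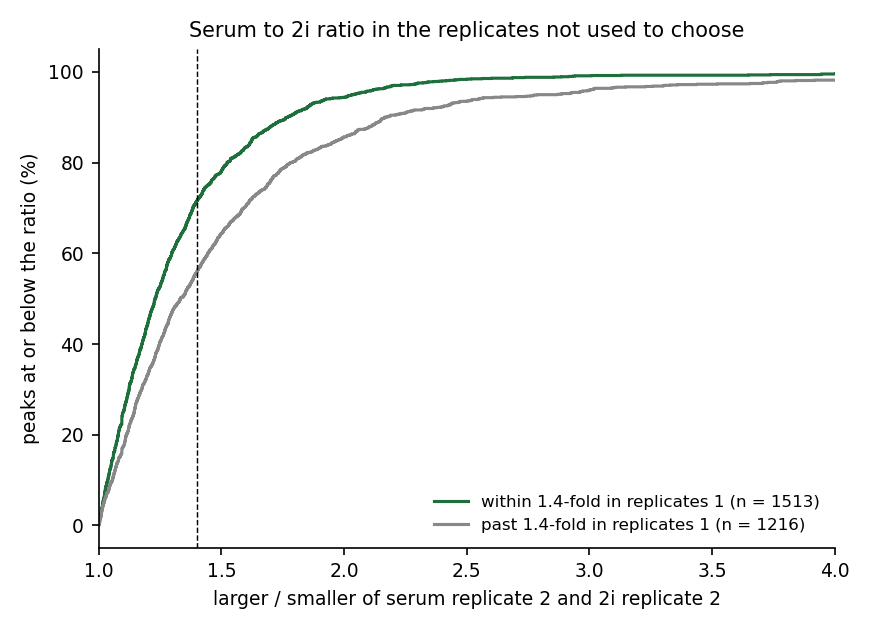
Cumulative share of peaks (vertical axis, %) by the larger over the smaller of serum replicate 2 and 2i replicate 2 (horizontal axis, drawn to 4), for peaks within or past 1.4-fold in the first replicates. At the dashed line of 1.4, 71.5% of the 1513 chosen peaks and 55.8% of the 1216 others have been reached.

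The steadiest peak of all was at a U3 locus on chromosome 11 (chr11:87256499-87257240, coordinates of peaks as deposited in mm9). U3 is the small nucleolar RNA that guides cleavage of the ribosomal RNA precursor. Its values were 223 and 215 in serum and 218 and 217 in 2i, a ratio of 1.035, with the limit on repeated copies given above. Ddi2, a protease of the ubiquitin-proteasome system, had 190 and 190 in serum and 197 and 190 in 2i. At Fbxl17, which encodes an F-box subunit of SCF ubiquitin ligases, serum gave 242 and 240 and 2i gave 250 and 248. These spreads, of about 4% or less between largest and smallest value, are below the SD that counting noise alone gives in serum replicate 1 at the median stable peak.

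Ctnnb1 (chr9:120842385-120843066) encodes beta-catenin, the transcriptional effector of Wnt signaling. Its peak, centred 16 bp before the start, held the TTTCCCGC word printed above and had 345 and 337 in serum and 357 and 342 in 2i. The ratio was 1.057 at a mean of 345, which made it the strongest of the 10 peaks with the smallest ratios. 2410022L05Rik, the other of these 10 with an E2F word, had 129 and 123 in serum and 129 and 122 in 2i. The replicates differed there more than the conditions did.

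The rest of the 10 had means of 139 to 253 and ratios of 1.044 to 1.060. Zfp292, a zinc finger protein gene, had 249 and 245 in serum and 260 and 258 in 2i, with the 2i values slightly the higher. Zfp318, also a zinc finger gene, had 134 and 140 in serum against 139 and 142. Eif4h, a cofactor of the eIF4A helicase, had 148 and 144 in serum and 141 and 147 in 2i. Conditions overlapped at both. Phtf2, whose promoter is shared with Tmem60 on the opposite strand, had 153 and 147 in serum and 148 and 148 in 2i. Herpud2, with 155 and 151 in serum and 158 and 159 in 2i, did not overlap, by a margin smaller than the gap between its serum replicates.

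**Figure D3:**
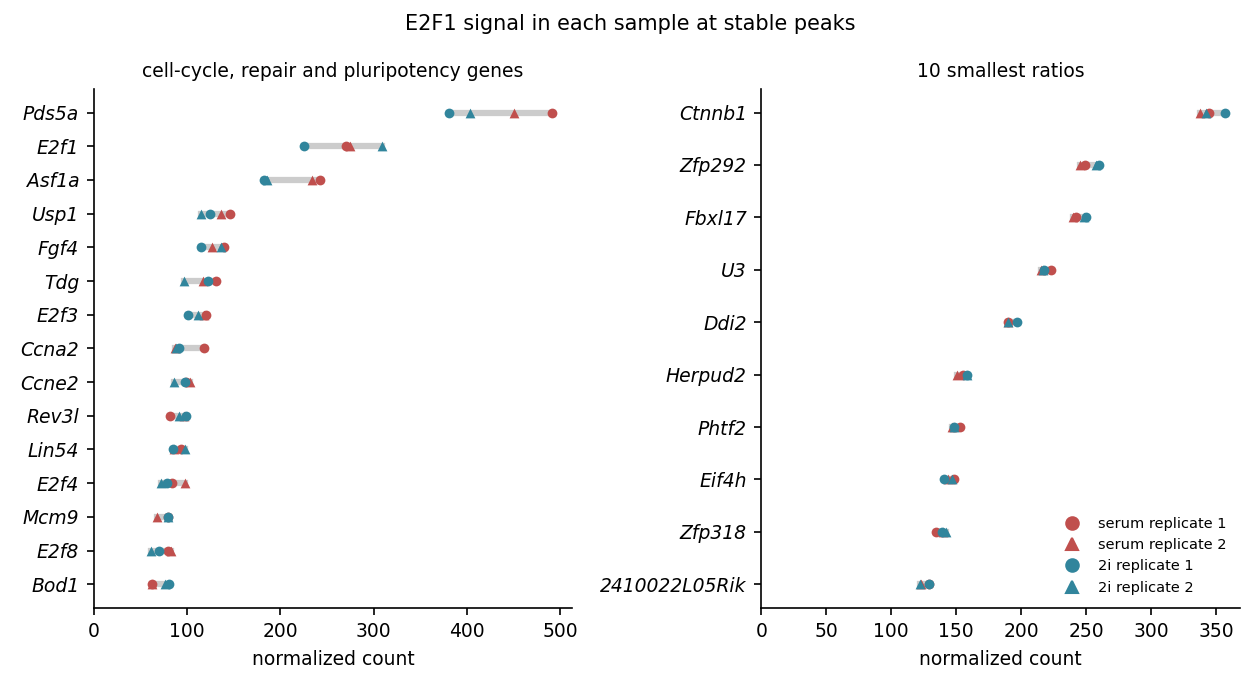
Normalized counts (horizontal axes, from 0) of each sample at stable peaks, serum in red and 2i in blue, replicate 1 as circles and replicate 2 as triangles, with a grey bar from the lowest to the highest value. Left, stable peaks at genes of the cell cycle, repair and pluripotency lists. Right, the 10 peaks with the smallest ratios, where all 4 symbols nearly coincide.

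Rybp, a subunit of variant Polycomb complex PRC1, had the highest mean of the stable peaks: 692 and 923 in serum and 725 and 789 in 2i (chr6:100236708-100237938). Both extremes were serum values, and the low one came from serum replicate 1 on chromosome 6. Ubtf, the factor that opens ribosomal RNA genes for RNA polymerase I, had 817 and 593 in serum and 662 and 812 in 2i. Here too the spread was between replicates and not between conditions. Hmgb1, an abundant chromatin protein that bends DNA, had 720 and 638 in serum and 670 and 515 in 2i. At Rcc2, which acts in mitosis, the values were 718 and 679 against 528 and 708. The conditions overlapped at both genes.

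Ctcf, the insulator and loop-anchoring protein, had 481 and 417 in serum and 442 and 361 in 2i. Pds5a, a regulator of the cohesin ring that works with it, had 491 and 451 in serum and 381 and 404 in 2i, without overlap. Irf2bp2, a transcriptional corepressor, had 392 and 479 against 366 and 444. Tmpo, which encodes the nuclear envelope proteins LAP2, had 488 and 422 in serum and 357 and 352 in 2i. Serum was thus above 2i at Pds5a and Tmpo in all samples and overlapped 2i at Ctcf and Irf2bp2. Rnf19b, a ubiquitin ligase gene, had 476 and 356 in serum and 423 and 359 in 2i. The peaks of highest mean described here had ratios of 1.291 to 1.396, so they were not among the steadiest.

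Of 12 peaks of that signal at genes of the E2F and RB network, 5 were stable (41.7%, 15.2 to 72.3%, an interval that holds the 24.4% of all such peaks). The 12 had a median ratio of 1.51 and a highest ratio of 2.34. E2f1, the gene of the factor that was immunoprecipitated, had 270 and 275 in serum and 226 and 309 in 2i at its own start (chr2:154395041-154395771). The serum replicates agreed and fell between the 2i replicates. E2f3, the other activator here, had 120 and 118 in serum and 101 and 112 in 2i. E2f4, which with RB family proteins represses in G1, had 83.6 and 98.2 against 78.4 and 72.0. In E2f8, an atypical repressor that binds without DP, the values were 80.1 and 82.9 in serum and 70.0 and 61.5 in 2i. Serum was the higher without overlap at E2f3, E2f4 and E2f8, where 33.9% of stable and 49.3% of all peaks have no overlap in either direction. Lin54, the DNA-binding subunit of the DREAM complex, had 94.1 and 85.8 in serum and 84.5 and 98.1 in 2i, with full overlap. Of these only E2f8 had an 8-letter E2F word near the centre. Over all 13 peaks of the list limma called 1 with serum higher and 0 with 2i higher (7.69%), beside 10.3% of all peaks, 4.82% with serum higher and 5.48% with 2i higher. Of the 12 of that signal 10 had a positive difference (median 0.30), beside 1463 of all 2731 (median 0.04). The counts of the other lists are likewise given beside these shares, and none was tested against them.

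Cyclins, CDKs and their inhibitors had 2 stable peaks of 6 (33.3%, 4.33 to 77.7%). Ccna2, cyclin A2 of S phase and G2, had 118 and 86.7 in serum and 91.8 and 88.7 in 2i, with 1 high serum value. Ccne2, cyclin E2 of the step from G1 to S phase, had 99.3 and 103 in serum and 97.4 and 85.5 in 2i. limma called 0 of the 12 peaks of this list with serum higher and 1 with 2i higher (8.33%, beside 10.3% of all peaks).

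DNA replication and chromatin assembly genes had 2 stable peaks of 10 (20.0%, 2.52 to 55.6%). Asf1a, a histone H3-H4 chaperone, had 242 and 234 in serum and 183 and 186 in 2i (log2 difference 0.37). Its replicates agreed within each condition and serum was the higher. Mcm9, a helicase related to the replicative MCM proteins and active in recombination, had 80.1 and 67.7 in serum and 80.1 and 79.3 in 2i. Of the 19 peaks of the list, limma called 0 with serum higher and 3 with 2i higher (15.8%, beside 10.3% of all peaks). None of these 3 was among the 10 peaks of that signal, of which 8 had serum higher (median 0.37) and 1 had an unadjusted p under 0.05.

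Repair genes had 3 stable peaks of 12. Usp1, which removes ubiquitin from FANCD2 and PCNA, had 146 and 136 in serum and 125 and 115 in 2i, and held the TTTCGCGC word shown above. Tdg, a DNA glycosylase that removes T from G/T mispairs in base excision repair and acts in active demethylation, had 131 and 117 in serum and 123 and 97.0 in 2i. At Rev3l, the catalytic subunit of the translesion polymerase zeta, they were 81.9 and 97.2 in serum and 98.5 and 91.8 in 2i. Of these Usp1 alone had no overlap. The mitosis list had 2 of 11, Pds5a and Bod1, a chromosome biorientation factor with 62.7 and 62.9 in serum and 81.2 and 76.2 in 2i. Beside the 10.3% of all peaks, limma called 0 repair peaks of 17, with 1 of the 12 of that signal at an unadjusted p under 0.05, and 1 mitosis peak of 18 (5.56%), with 2i higher.

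Fgf4, the growth factor through which ESCs feed ERK signaling, was the 1 stable peak among 13 at genes of the pluripotency network (7.69%, 0.195 to 36%). Its values were 139 and 127 in serum and 115 and 137 in 2i. The 13 peaks had a median ratio of 1.77, and limma called 1 of the list's 16 peaks with serum higher and 0 with 2i higher (6.25%, beside 10.3% of all peaks). At an unadjusted p under 0.05 were 5 of the 13, beside 18.3% of all peaks of that signal. Of the Myc and Max network, Mxi1, a partner of Max that opposes Myc, was stable with 45.3 and 59.1 in serum and 49.8 and 48.0 in 2i, as 1 of 2.

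Chromatin modifiers had 13 stable peaks of 62 (21.0%, 11.7 to 33.2%). Crebbp, an acetyltransferase, had 274 and 279 in serum and 225 and 258 in 2i. Serum was slightly higher there without overlap. Smarca5, the ATPase of ISWI remodelers, had 240 and 253 in serum and 258 and 255 in 2i. Others were Wdr5, Dnmt3a, Kdm1a, Rnf2, Setd1a, Ncoa3, Smarca4, Kdm4c, Setd2 and Rbbp7. Over the 73 chromatin peaks limma called 7 with serum higher and 0 with 2i higher (9.59%, beside 10.3% of all peaks). By direction, 4.82% of all peaks were called with serum higher and 5.48% with 2i higher. Among the 62 of that signal limma called 6 with serum higher and 0 with 2i higher, beside 192 called in either direction of all 2731.

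Genes of ribosomal proteins and translation factors had 10 stable peaks of 39 (25.6%, 13.0 to 42.1%). Rps20 had 331 and 330 in serum and 303 and 379 in 2i, with serum between the 2i replicates. Rpsa, a protein of the small ribosomal subunit like Rps20, had 335 and 309 in serum and 300 and 248 in 2i. Rps19, the third of the small subunit, had 361 and 334 against 260 and 289. The E2F words of Rps20 and Rpsa lay 178 and 26 bp from their starts, in stretches that touch an annotated exon. limma called 4 of the 60 peaks of this list with serum higher and 3 with 2i higher (11.7%), a share near the 10.3% of all peaks. Splicing genes had 9 stable peaks of 33 (27.3%), and limma called 0 of their 47 peaks, beside 10.3% of all peaks. At an unadjusted p under 0.05 were 5 of the 33, beside 18.3% of all peaks of that signal. The 9 stable splicing peaks included Hnrnpa3, with 352 and 315 in serum and 316 and 265 in 2i, and Sf1, the branch point binding protein, with 186 and 148 against 138 and 166. Mitochondrial genes had 3 of 11. Atp5g3, a subunit of ATP synthase, had 132 and 101 in serum and 132 and 105 in 2i, with the spread between replicates and not between conditions.

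Ubiquitin enzymes and the proteasome held the largest number of stable peaks of the 14 lists, 38 of 103 (36.9%, 27.6 to 47.0%), beside 24.4% of all peaks of that signal. No test was made of this share. The 38 include cullins (Cul1, Cul3), F-box genes (Fbxl17, Fbxl5, Fbxo34, Fbxo31, Fbxo33), conjugating enzymes (Ube2e3, Ube2j1) and deubiquitinases (Usp7, Usp10, Usp42, Otub1). Usp7, which stabilizes Mdm2 and other nuclear proteins, had 411 and 323 in serum and 375 and 362 in 2i. The median difference over the 103 was 0.00, with serum higher in 52, and limma called 4 with serum higher and 7 with 2i higher over all 155 peaks of the list (7.10%, beside 10.3% of all peaks). Zinc finger protein genes had 21 of 72 (29.2%, 19.0 to 41.1%), a median difference of -0.03, and 6 peaks called with serum higher and 5 with 2i higher of 108 (10.2%). Beside the 18.3% of all peaks of that signal, an unadjusted p under 0.05 was reached by 12 of 103 ubiquitin, 12 of 72 zinc finger, 14 of 62 chromatin, 8 of 39 ribosome and translation, 1 of 11 mitochondrial, 1 of 11 mitosis, 2 of 12 E2F and RB network and 1 of 6 cyclin and CDK peaks. Zbtb25, at a promoter shared with Zbtb1, had 206 and 260 in serum and 258 and 253 in 2i.

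The replication-dependent histone genes were absent from the stable set: 0 of their 34 peaks of that signal were stable, which by an exact binomial interval allows up to 10.3%. Ratios there lay between 1.60 and 4.21 (median 2.53), and serum was the higher at all 34, as deposited, with values rescaled to the same total, by the median of ratios and by chromosome alike. The median difference was 0.93 as deposited and 0.64 after rescaling by chromosome. On the deposited values limma called 14 with serum higher and 0 with 2i higher (41.2%, beside 10.3% of all peaks), and 30 of the 34 had an unadjusted p under 0.05. Histone genes lie in clusters of near-identical copies, which leaves the placing of reads among them uncertain, and neighbouring peaks are not independent. Without 2i replicate 2 the rule took 5 of the 34 histone peaks, beside 37.0% of all peaks of that signal, a share that leaving out a sample raises. After rescaling by chromosome it took 2 of the 34, beside 27.1%. That none was stable thus rests partly on that library and on the scaling.

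**Figure D4:**
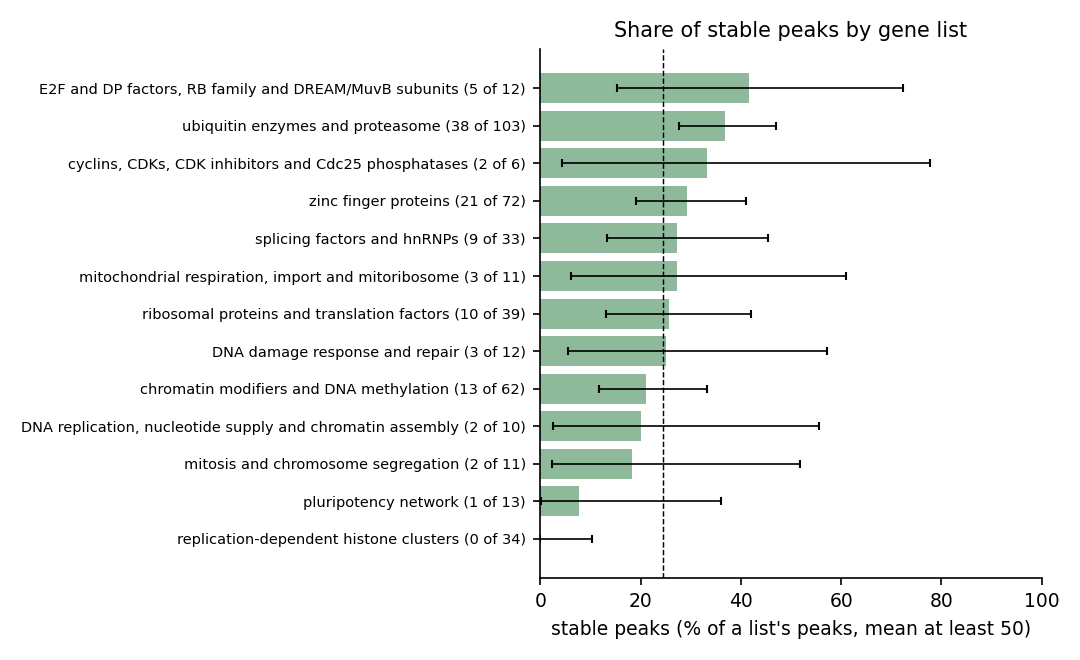
Bars give the stable peaks as a share of the peaks with a mean of at least 50 in each gene list of 6 or more such peaks, with exact 95% binomial intervals and the counts beside the names. The dashed line is the share over all 2731 peaks, 24.4%; the histone list is at 0 of 34 and the ubiquitin list at 38 of 103.

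Chromosomes differed in their stable share. On chromosome 6 it was 10.4% (14 of 134 peaks, 5.83 to 16.9%), on chromosome 16 14.9% and on chromosome 11 16% (39 of 244). On chromosome 10 it was 38.1% (51 of 134, 29.8 to 46.8%) and on chromosome 5 33.0%. Over the peaks of chromosome 6 the median log2 ratio to the mean of the 4 samples was -0.43 and 0.07 for replicates 1 and 2 of serum, and 0.26 and 0.02 for those of 2i. The serum replicates thus differed from each other by a median of 0.54 there. On chromosomes 11 and 16 the sample apart was 2i replicate 1, at 0.27 and 0.19. On chromosome 10 all 4 medians lay between -0.06 and 0.04.

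When each sample was rescaled on every chromosome by its median ratio there, an alternative chosen after the data were seen, 745 peaks met the rule, of which 526 were among the 667. Chromosome 6 then had 44 stable peaks of 132 (33.3%), chromosome 11 26.2% and chromosome 16 23.9%, with chromosome 10 at 38.1% as before. Without serum replicate 1 the share on chromosome 6 was 41.9%, against 14.2 to 23.4% without any 1 of the other samples. Without 2i replicate 1 it was 45.0% on chromosome 11 and 42.3% on chromosome 16, against 24.2 to 29.5% and 24.2 to 32.9% without any 1 of the others. Leaving out a sample raises the share on every chromosome shown, since 3 values span less than 4, and on chromosome 10 the shares were 49.6 to 55.6%. What sets these samples apart there was not tested.

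**Figure D5:**
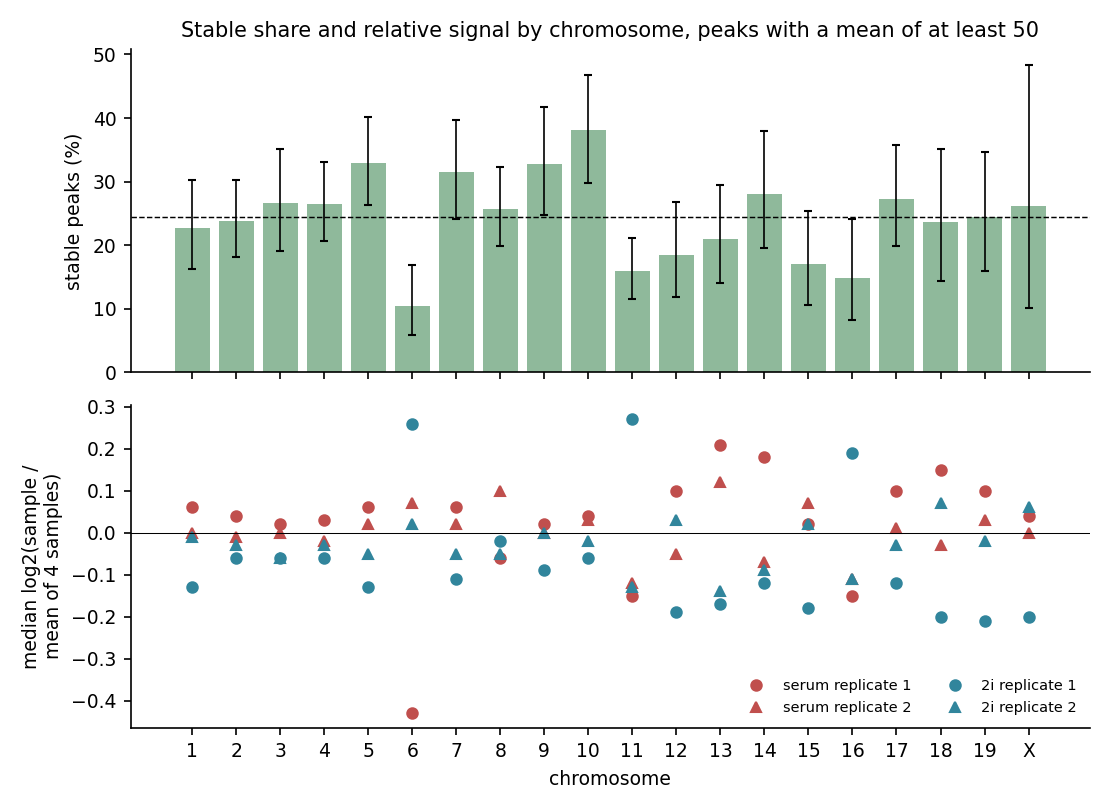
Top, stable peaks as a share (%) of the peaks with a mean of at least 50 on each chromosome, with exact 95% binomial intervals and a dashed line at 24.4%. Bottom, median log2 ratio of each sample to the mean of the 4 samples over the same peaks; serum replicate 1 lies at -0.43 on chromosome 6, and 2i replicate 1 at 0.27 on chromosome 11.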

How the data were processed

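E2F1 ChIP-seq reads of 2 serum and 2 2i samples were aligned by the authors to mm9 with BWA. They removed duplicates and blacklisted regions, called peaks per sample with MACS2, kept those shared by replicates, merged both conditions and counted reads per peak with bedtools; sites of a single replicate are therefore missing. The deposited signal is a normalized count per peak and sample.

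The members, gene lists and tests were chosen with earlier results of these data known. Named peaks are the 10 of highest mean and of smallest ratio, members of the cell cycle and pluripotency lists, the 3 strongest of the other lists, and those at the limits or with the largest differences. Some of these peaks are not reported here. All 4523 peaks were fitted with limma 3.58.1 (R 4.3.3, eBayes with a trend) on log2(signal + 1), without a block. The fitting code was tested on simulated data. Peak centres were placed on NCBIM37 with GENCODE M1, leaving out 14 peaks on unplaced contigs. Shares have exact binomial intervals (scipy 1.17.1, Python 3.11.15). Alternatives included other limits, scalings, promoter definitions, words and left-out replicates. The labels call the replicates biological without saying whether cultures were separate, so p-values measure the spread between these samples only.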

Additional observations from a re-analysis of the deposited data

How the results depend on the processing

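The number of stable peaks was 667 as reported, 376 with a ratio limit of 1.3 and 385 with a minimum mean of 100, both of which follow from the narrower rule. Leaving out each replicate gave 1011 to 1133 peaks, since 3 values span less than 4. Rescaling to the same total gave 654 peaks, of which 564 were among the 667, and 52 of the 62 named stable peaks kept a ratio within the limit. Past it were Ubtf (1.424), Fam189a1 (1.429), Marveld2 (1.401), Eif4a2 (1.415), Atp5g3 (1.411), Bod1 (1.411), Zfp746 (1.405), Cul1 (1.491), Ptprk (1.483) and Vkorc1l1 (1.512). The promoter-TSS share was 94.0% with 500 bp either side, 94.9% with any overlap and 61.8% with protein-coding transcripts only, and 68.8 to 70.3% when a replicate was left out. The share with an E2F word (6.0% as reported) was 2.55% within 100 bp of the centre, 9.0% over the whole peak, 1.65% with TTTCGCGC and TTTGGCGC only and 27.9% with the 7-letter words, and 5.10 to 5.65% without a replicate. The held-out share of 71.5% became 62.0% with the pairs exchanged, 67.2% and 64.1% with the crossed choices, and 77.1% at a minimum mean of 100. limma called 466 peaks as reported, 188 at a minimum mean of 50, 378 to 674 without a replicate (674 without serum replicate 2; the single sample left is assumed to vary like the others), and 504 with a replicate block. The same-numbered samples had a correlation of deviations of 0.05, so the numbers give no pairing. The split of calls, 218 with serum higher and 248 with 2i higher, became 178 and 313 after rescaling to the same total, and turned to 121 and 67 at a minimum mean of 50, 165 and 152 with a pseudocount of 8, 237 and 141 without 2i replicate 1 and 238 and 175 without 2i replicate 2. The 66 peaks with an adjusted p under 0.05 became 311 with the replicate block, 0 with eBayes without a trend, 0 without serum replicate 1, 33 without serum replicate 2, 17 without 2i replicate 1 and 11 without 2i replicate 2. Of the 667 stable peaks limma called 0 in each of these fits, which the rule largely fixes. The tests on counts with edgeR and DESeq2 were planned and not run, because the reads were inferred from the spacing of the deposited values and not checked against the authors' counts. Serum replicate 1, with a median of 64.0 reads at stable peaks, limits the smallest spread that can be seen.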
